A study of Mus musculus with 57 samples.

Results

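The Slc25a genes encode the mitochondrial carrier family, and their transcripts were described here across the colon and colon tumors of mice with and without the insulin receptor in the intestinal epithelium. Every gene whose symbol is Slc25a followed by a number, and that had a probe set naming it alone, was taken. This gave 46 of the 22180 genes measured, each through 1 probe set. Slc25a52 had no such probe set and was not analysed here.

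Whole-transcript Affymetrix arrays measured total RNA in 57 samples of the distal colon of adult C57BL/6 mice. Their age was 18 to 24 weeks, and the treatment protocol names females. INSRfl/fl littermates carry a floxed insulin receptor gene and served as controls, called fl/fl here. In villin-CRE-INSR-/- mice, called knockout here, Cre driven by the villin promoter inactivates that gene in the intestinal epithelium, so the other cells of the colon wall keep it. Untreated colon came from 10 fl/fl and 10 knockout samples. Colon after AOM and DSS came from 10 and 10 samples, and tumors after the same treatment from 8 fl/fl and 9 knockout samples. AOM (azoxymethane, a colon carcinogen) was injected at 7.4 mg/kg, 3% DSS (dextran sulfate sodium, which injures the colon lining) was given for 7 days in week 2, and mice were killed in week 5. AOM+DSS colon and tumors were both taken in that week, so their comparison is between tissues and not over time. The labels call the samples biological replicates and tie no tumor to the colon of its mouse. The p-values measure the spread between these samples.

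Values are RMA log2 levels, and group values are given as the lowest, median and highest sample. Changes are differences of group means on the log2 scale ± SE from limma, with p adjusted by the Benjamini-Hochberg method over the 22180 genes and a threshold of 0.05. "Rose" and "fell" are used of changes past that threshold. Probe sets differ in brightness, so the level of a gene is not set against that of another gene.

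Insr, the targeted gene, had a median of 9.01 in fl/fl and 8.04 in knockout untreated colon, 8.51 and 7.72 after AOM+DSS, and 8.20 and 7.38 in tumors. Its change was -0.94 ± 0.099, -0.84 ± 0.099 and -0.65 ± 0.11 (adjusted p = 6.71e-09, 2.32e-07 and 0.00234 by limma). The 7 epithelium markers had group means between 11.55 and 11.66 in all 6 groups, although 1 rose and 3 fell in fl/fl tumors against untreated colon, and 2 rose and 4 fell in knockout tumors. Array medians lay between 5.923 and 6.039. The array that correlated least with its group was replicate 2 of untreated knockout colon (mean r = 0.97564, against 0.97909 or more for the others).

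Carriers of this family sit mostly in the inner mitochondrial membrane and exchange small molecules between the cytosol and the matrix: ADP for ATP, phosphate, citrate, aspartate for glutamate, acylcarnitines, nucleotides, cofactors and iron. They are built from repeated pairs of membrane-spanning helices, and many occur as close paralogues with differing tissue preference. A few act elsewhere, such as Slc25a17 in peroxisomes and Slc25a46 in the outer mitochondrial membrane. The colon epithelium is known for its use of short-chain fatty acids as fuel, which depends on mitochondrial oxidation.

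Promoter sequences are shown for the members on which the results turn, chosen after their values were seen. Slc25a33 and Slc25a36 moved in opposite directions in tumors, Slc25a34 had the largest fall in tumors, and Slc25a20, the carnitine carrier, passed the test in tumors but not after AOM+DSS. Each is the 250 bases before a start in RefSeq's promoter table (build GRCm38.p6, read 5′ to 3′ on the gene's strand), in lower case with a motif match in capitals. In Slc25a33 (chr4:149774268-149774517, minus strand) and Slc25a36 (chr9:97111042-97111291, minus strand) the capitals mark the E-box CACGTG, whose first base lies 8 and 187 bases before the start. In Slc25a34 (chr4:141623835-141624084, minus strand) they mark a nuclear receptor half-site, AAGGTCA read on the other strand, 119 bases before that start. The start lies inside the extent RefSeq gives for Slc25a34, so 57 bases of its window are within the gene, against 0 for the other three. In Slc25a20 (chr9:108661886-108662135, plus strand) they mark the Ets motif CCGGAAGT, 79 bases before the start.
Slc25a33: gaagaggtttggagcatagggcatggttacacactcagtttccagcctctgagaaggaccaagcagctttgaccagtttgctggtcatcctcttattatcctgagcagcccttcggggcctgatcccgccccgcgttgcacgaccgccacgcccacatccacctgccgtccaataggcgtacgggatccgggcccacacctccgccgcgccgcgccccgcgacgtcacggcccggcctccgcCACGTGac
Slc25a36: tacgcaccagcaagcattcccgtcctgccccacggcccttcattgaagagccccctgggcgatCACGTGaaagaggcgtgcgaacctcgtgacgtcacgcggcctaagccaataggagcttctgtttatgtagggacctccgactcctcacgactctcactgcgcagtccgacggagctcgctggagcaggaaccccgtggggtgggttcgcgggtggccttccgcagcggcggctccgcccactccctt
Slc25a34: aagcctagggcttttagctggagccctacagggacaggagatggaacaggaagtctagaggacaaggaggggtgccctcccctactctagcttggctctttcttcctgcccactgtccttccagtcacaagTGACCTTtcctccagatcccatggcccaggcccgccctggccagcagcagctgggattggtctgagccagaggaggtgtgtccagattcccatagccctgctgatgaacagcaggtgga
Slc25a20: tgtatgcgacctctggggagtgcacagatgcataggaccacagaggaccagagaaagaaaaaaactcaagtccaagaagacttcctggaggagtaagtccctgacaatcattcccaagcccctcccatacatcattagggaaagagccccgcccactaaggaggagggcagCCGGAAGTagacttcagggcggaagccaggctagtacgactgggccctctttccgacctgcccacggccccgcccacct
The promoter table held 46 windows of 36 members, since some genes have several starts, among 32851 windows in all. On either strand, CACGTG was found in 17.4% of the member windows (8 windows of 7 genes) and in 6.02% of all windows. ATCAAAG (Tcf/Lef) was found in 6.52% and 3.21%, AAGGTCA in 2.17% and 4.08%, and CCGGAAGT in 2.17% and 2.88%. The Nrf1 palindrome was in 0 member windows and in 0.782% of all windows. The median GC content was 57.4% in the member windows and 52.4% in all. The other members with CACGTG were Slc25a1, Slc25a13, Slc25a14, Slc25a15 and Slc25a31, of which Slc25a14 and Slc25a15 passed the test in no comparison between conditions. The shares are descriptions of these letters and windows. In the windows shown above, none of the motifs overlapped another.

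Across the conditions, more members fell than rose. In fl/fl mice, 4 members rose and 12 fell in AOM+DSS colon against untreated colon, or 34.8% of members against 22.7% of all genes tested. In knockout mice 3 rose and 15 fell (39.1% of members and 30.2% of all genes). With all arrays shifted to 1 median the fl/fl split became 6 higher and 6 lower, and the knockout split 3 and 14. Over all genes called, the share that was higher went from 53.8% to 72.9% in fl/fl mice with that shift. In knockout mice it went from 52.9% to 55%. By size, 1 member in fl/fl and 4 in knockout mice changed by at least 0.5 (4.6% and 6.79% of all genes).

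In tumors against AOM+DSS colon, 7 members rose and 15 fell in fl/fl mice, which is 47.8% of members against 41.2% of all genes (20.2% of all genes fell). In knockout mice 9 rose and 15 fell, or 52.2% against 42.9%. Against untreated colon, 8 rose and 22 fell in fl/fl tumors, 65.2% of members against 45.4% of all genes. In knockout tumors 9 rose and 21 fell, 65.2% against 47.3%. By direction, 47.8% of members and 22.5% of all genes fell in fl/fl tumors against untreated colon, and 17.4% and 22.9% rose. In knockout tumors 23.7% of all genes fell and 23.6% rose. The median change of the members was -0.14 in fl/fl and -0.15 in knockout tumors against untreated colon, beside -0.034 and -0.035 over all genes.

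Groups without overlap were counted as well. Between tumors and untreated colon, 15 members in fl/fl mice and 13 in knockout mice had no sample of one group within the range of the other, where 17.2% and 18% of all genes did so. Between AOM+DSS and untreated colon the counts were 0 and 4 members (1.06% and 4.74% of all genes), and between tumors and AOM+DSS colon 7 and 5 (12% and 14.7%). Changes past the threshold of at least 0.5 in size were found for 11 members in tumors of either genotype against untreated colon (18.6% and 19.4% of all genes). In all, 37 members passed in at least 1 of the 6 comparisons between conditions, as did 68.4% of all genes. The 9 that passed in none were Slc25a14, Slc25a15, Slc25a18, Slc25a25, Slc25a37, Slc25a38, Slc25a47, Slc25a51 and Slc25a54.

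**Figure D1:**
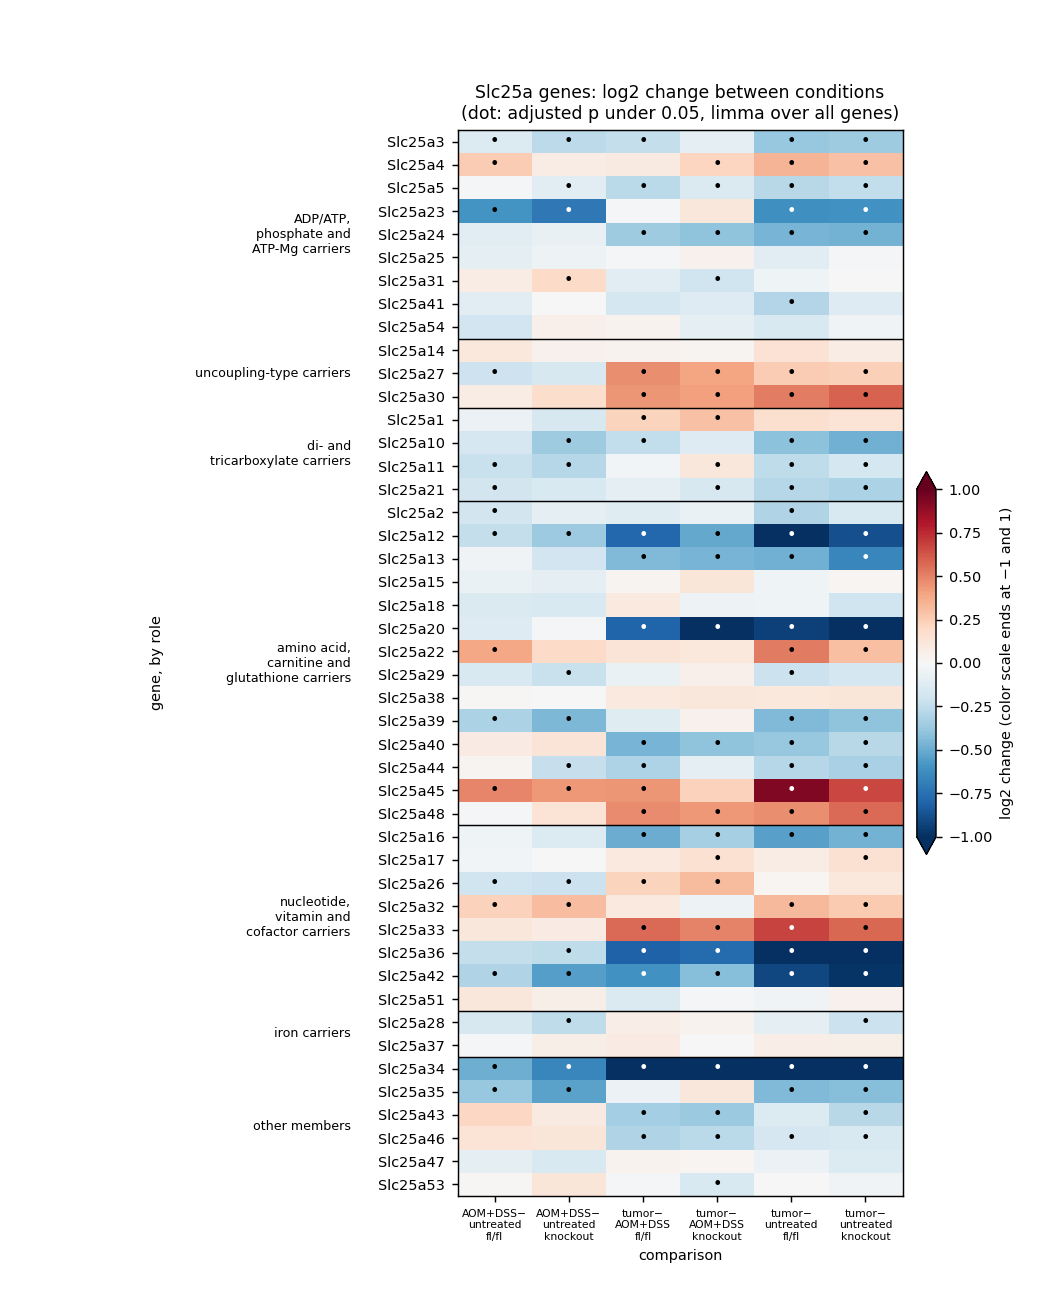
Log2 change of each of the 46 Slc25a genes (rows, grouped by role) in 6 comparisons between conditions (columns); red is higher and blue lower in the first-named condition, and a dot marks an adjusted p under 0.05. Slc25a34, Slc25a36, Slc25a12, Slc25a20 and Slc25a42 are the darkest blue in tumors against untreated colon, and Slc25a45 and Slc25a33 the darkest red.

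The tissue sampled differed between tumors and colon in ways the arrays show. All 8 smooth muscle markers fell in tumors, with a mean level between 11.54 and 11.93 in untreated fl/fl colon and between 9.54 and 10.59 in fl/fl tumors. In knockout mice the ranges were 11.58 to 11.93 and 8.97 to 10.73. All 7 markers of surface colonocytes, the mature absorptive cells, fell too. Their mean lay between 12.16 and 12.40 in untreated fl/fl colon and between 8.31 and 10.84 in fl/fl tumors, and in knockout mice between 12.11 and 12.38 and between 7.73 and 10.05. All 7 measured proliferation markers rose. Their mean lay between 8.47 and 9.01 in untreated fl/fl colon and between 9.22 and 9.65 in fl/fl tumors, and in knockout mice between 8.38 and 9.29 and between 9.43 and 9.85. AOM+DSS colon differed from untreated colon in other lists: all 6 neutrophil, 6 macrophage, 6 fibroblast and 5 B cell markers rose in both genotypes. Of 9 squamous epithelium markers, 7 rose in fl/fl and 6 in knockout mice, with a list mean from 5.52 to 8.67 in untreated and 5.59 to 9.45 in AOM+DSS fl/fl colon. None of the 8 smooth muscle or 7 proliferation markers passed there.

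With the squamous mean as a covariate, 11 members in fl/fl and 16 in knockout mice passed between AOM+DSS and untreated colon. Over all 22180 genes, 2763 and 4892 passed with it, against 5044 and 6692 without it. With the smooth muscle mean as a covariate, 63 of the 141 calls on members in all comparisons remained and 78 were lost, with no reversal of direction. All 78 were in comparisons with tumors. In 25 of them the change was as large as without the covariate or larger, and the median SE of the 78 went from 0.081 to 0.16 while their median size went from 0.35 to 0.26. The members still called between tumors and untreated colon were 11 in fl/fl and 7 in knockout mice, and between tumors and AOM+DSS colon 6 and 4. Over all 22180 genes, the calls between tumors and untreated colon went from 10063 and 10486 to 3305 and 2967. Those between tumors and AOM+DSS colon went from 9143 and 9511 to 2131 and 2145, so the loss was not particular to the members. Slc25a5, Slc25a13, Slc25a20, Slc25a34, Slc25a36 and Slc25a42 remained below untreated colon in the tumors of both genotypes. The part of surface colonocytes, proliferation and immune cells in the members' changes was not tested. In whole tissue, fewer cells of a type and less RNA per cell cannot be told apart.

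ADP/ATP, phosphate and ATP-Mg carriers feed oxidative phosphorylation and set the matrix pool of adenine nucleotides. Of the 9, 1 rose and 5 fell in fl/fl tumors against untreated colon, where 22.9% of all genes rose and 22.5% fell. In knockout tumors 1 rose and 4 fell (23.6% and 23.7% of all genes). Slc25a23, a calcium-responsive ATP-Mg/phosphate carrier, lay at 9.43, 9.65 and 9.98 in untreated fl/fl colon, at 8.69, 9.06 and 9.53 after AOM+DSS and at 8.70, 9.07 and 9.30 in tumors. In knockout mice the values were 9.47, 9.67 and 9.83, then 8.45, 8.93 and 9.41, then 8.78, 9.11 and 9.28. All AOM+DSS knockout samples and the tumors of both genotypes lay below the untreated samples of their genotype, while AOM+DSS colon and tumors overlapped. Slc25a23 fell by 0.60 ± 0.097 and 0.72 ± 0.097 after AOM+DSS in fl/fl and knockout mice (adjusted p = 5.76e-06 and 4.22e-08). Tumors differed from AOM+DSS colon by -0.015 ± 0.10 and 0.11 ± 0.099 (adjusted p = 0.929 and 0.406).

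Slc25a24, of the same ATP-Mg/phosphate subfamily, had another pattern. It lay at 11.16, 11.32 and 11.47 in untreated fl/fl colon, 11.02, 11.20 and 11.36 after AOM+DSS and 10.61, 10.87 and 11.11 in tumors. The change after AOM+DSS was -0.11 ± 0.063 in fl/fl and -0.074 ± 0.063 in knockout mice (adjusted p = 0.2 and 0.403). In tumors against AOM+DSS colon Slc25a24 fell by 0.36 ± 0.067 and 0.40 ± 0.064 (adjusted p = 1.09e-05 and 4.76e-07). Tumors of both genotypes lay below all their untreated samples. Slc25a25, the third of this subfamily, stayed between 6.19 and 7.10 in all 57 samples and passed in no comparison.

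The main ADP/ATP translocases moved apart. Slc25a4, which encodes ANT1 and is known from heart and muscle, lay at 9.54, 9.72 and 10.15 in untreated fl/fl colon and at 9.73, 10.17 and 10.47 in fl/fl tumors. Slc25a5, which encodes the ANT2 of proliferating cells and epithelia, lay at 12.63, 12.74 and 12.82 and at 12.37, 12.44 and 12.58. The Slc25a4 ranges overlapped and the Slc25a5 ranges did not. Slc25a4 rose by 0.34 ± 0.092 and 0.29 ± 0.089 in fl/fl and knockout tumors against untreated colon (adjusted p = 0.00146 and 0.00492). Slc25a5 fell by 0.28 ± 0.040 and 0.25 ± 0.038 (adjusted p = 2.02e-08 and 1.5e-07). With the smooth muscle covariate, Slc25a4 still passed in fl/fl tumors (0.55 ± 0.18, adjusted p = 0.026) and in knockout tumors the change was 0.52 ± 0.19 (adjusted p = 0.059). Slc25a3, the phosphate carrier, fell by 0.38 ± 0.053 and 0.35 ± 0.052 (adjusted p = 1.75e-08 and 3.91e-08).

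Uncoupling-type carriers resemble the proton-leak protein of brown fat. Of the 3 measured under Slc25a symbols, 2 rose in the tumors of both genotypes against untreated colon, as did 20.6% of all genes. Slc25a30 lay at 6.76, 7.21 and 7.51 in untreated fl/fl colon, 7.05, 7.24 and 7.59 after AOM+DSS and 7.13, 7.74 and 8.06 in tumors. Knockout samples lay at 6.91, 7.33 and 7.45, then 7.01, 7.45 and 7.70, then 7.49, 7.81 and 8.17. The fl/fl tumors overlapped untreated colon and the knockout tumors did not. Slc25a30 rose by 0.51 ± 0.10 and 0.59 ± 0.099 against untreated colon (adjusted p = 2.46e-05 and 9.25e-07). Slc25a27 rose by 0.26 ± 0.073 and 0.24 ± 0.071 (adjusted p = 0.00299 and 0.00447). Slc25a14 stayed between 6.08 and 6.71 in all samples.

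Di- and tricarboxylate carriers link the citric acid cycle to the cytosol. Of the 4, 3 fell in the tumors of both genotypes against untreated colon, as did 18.6% of all genes. Slc25a10, the dicarboxylate carrier, lay at 8.24, 8.55 and 8.86 in untreated fl/fl colon, 8.17, 8.34 and 8.70 after AOM+DSS and 7.86, 8.17 and 8.33 in tumors. It fell by 0.41 ± 0.089 and 0.48 ± 0.086 in fl/fl and knockout tumors against untreated colon (adjusted p = 0.000102 and 3.61e-06), with overlapping ranges. Slc25a11, the oxoglutarate/malate carrier, lay at 10.18, 10.34 and 10.40 in untreated fl/fl colon and at 9.88, 10.10 and 10.32 after AOM+DSS. It fell by 0.22 ± 0.047 and 0.29 ± 0.047 after AOM+DSS (adjusted p = 0.000389 and 2.25e-06). Slc25a1, the citrate carrier of fatty acid and sterol synthesis, lay at 9.82, 10.11 and 10.24 in AOM+DSS fl/fl colon and at 9.95, 10.33 and 10.48 in fl/fl tumors. It rose by 0.22 ± 0.074 and 0.29 ± 0.072 in tumors against AOM+DSS colon (adjusted p = 0.0131 and 0.000541). Slc25a21, the oxodicarboxylate carrier, was dim, between 3.98 and 4.81 in all samples and below all array medians. It fell by 0.28 ± 0.065 and 0.31 ± 0.063 in tumors against untreated colon (adjusted p = 0.000245 and 3.01e-05).

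Amino acid, carnitine and glutathione carriers held the most members, 14. Of these, 3 rose and 8 fell in fl/fl tumors against untreated colon, where 22.9% of all genes rose and 22.5% fell. In knockout tumors 3 rose and 6 fell (23.6% and 23.7% of all genes). Slc25a12, the aspartate-glutamate carrier Aralar of the malate-aspartate shuttle, lay at 10.38, 10.61 and 10.73 in untreated fl/fl colon, 10.12, 10.39 and 10.67 after AOM+DSS and 9.07, 9.61 and 9.90 in tumors. The knockout values were 10.42, 10.61 and 10.71, then 9.94, 10.21 and 10.45, then 9.05, 9.82 and 10.08. Tumors of both genotypes lay below all untreated samples, at 49% of the untreated level in fl/fl and 54.3% in knockout mice. Slc25a12 fell by 1.03 ± 0.093 and 0.88 ± 0.090 against untreated colon (adjusted p = 2.4e-14 and 1.3e-12). In AOM+DSS colon it fell by 0.24 ± 0.087 and 0.37 ± 0.087 against untreated colon (adjusted p = 0.0373 and 0.000746). The fl/fl value no longer passed with all arrays shifted to 1 median (adjusted p = 0.103 by limma).

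Slc25a13, its paralogue citrin, lay at 8.96, 9.08 and 9.21 in untreated fl/fl colon, 8.83, 9.01 and 9.55 after AOM+DSS and 8.21, 8.57 and 9.18 in tumors. Its knockout levels were 8.98, 9.16 and 9.28, then 8.62, 8.99 and 9.26, then 8.16, 8.51 and 8.80. The knockout tumors lay below all untreated knockout samples, and the fl/fl ranges overlapped. Slc25a13 fell by 0.48 ± 0.090 and 0.65 ± 0.087 against untreated colon (adjusted p = 9.12e-06 and 3.83e-09).

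Slc25a20, the carnitine-acylcarnitine carrier that brings long-chain fatty acids into the matrix, changed in tumors. It lay at 10.76, 11.17 and 11.31 in untreated fl/fl colon, 10.81, 10.93 and 11.31 after AOM+DSS and 9.85, 10.14 and 10.73 in tumors. In knockout mice the values were 10.55, 10.99 and 11.36, then 10.86, 10.97 and 11.13, then 9.68, 9.98 and 10.34. Tumors of either genotype lay below all colon samples of their genotype. The change after AOM+DSS was -0.13 ± 0.086 and -0.008 ± 0.086 (adjusted p = 0.294 and 0.959). Between AOM+DSS colon and tumors Slc25a20 fell by 0.80 ± 0.091 and 1.01 ± 0.089 (adjusted p = 7.16e-11 and 1.21e-14). Slc25a29, a related carrier of basic amino acids, lay between 5.45 and 6.21 in all samples and fell in fl/fl tumors by 0.22 ± 0.080 against untreated colon (adjusted p = 0.0235). That call was lost after further quantile normalization, with all arrays shifted to 1 median and with the smooth muscle covariate (adjusted p up to 0.534 by limma).

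Slc25a45 and Slc25a48 rose in tumors. Slc25a45, for which transport of methylated basic amino acids has been described, lay at 7.06, 7.32 and 7.76 in untreated fl/fl colon, 7.26, 7.65 and 9.16 after AOM+DSS and 8.05, 8.25 and 8.57 in tumors. In knockout mice it lay at 7.06, 7.61 and 8.02, then 7.71, 8.07 and 8.38, then 8.04, 8.24 and 8.49. Tumors lay above all untreated samples, and 1 AOM+DSS fl/fl sample at 9.16 lay above every other sample. Slc25a45 rose by 0.49 ± 0.13 and 0.43 ± 0.13 after AOM+DSS (adjusted p = 0.00368 and 0.00656) and by 0.93 ± 0.14 and 0.67 ± 0.13 in tumors against untreated colon (adjusted p = 5.03e-08 and 2.02e-05). Slc25a48, a choline carrier, lay at 5.94, 6.14 and 6.39 in untreated fl/fl colon, 5.95, 6.12 and 6.39 after AOM+DSS and 6.30, 6.63 and 6.87 in tumors. Knockout samples lay at 5.76, 6.21 and 6.56, 5.75, 6.34 and 6.62, and 6.50, 6.68 and 7.08. The ranges overlapped in both genotypes. Slc25a48 rose by 0.46 ± 0.094 and 0.57 ± 0.091 in tumors against untreated colon (adjusted p = 3.71e-05 and 3.83e-07).

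The glutamate carriers Slc25a22 and Slc25a18 differed. Slc25a22 lay at 7.80, 8.07 and 8.48 in untreated fl/fl colon, 8.09, 8.45 and 8.87 after AOM+DSS and 8.27, 8.56 and 8.93 in tumors, with overlap between all groups. The knockout values were 8.06, 8.13 and 8.49, then 8.09, 8.31 and 8.73, then 8.14, 8.38 and 9.02. Slc25a22 rose by 0.52 ± 0.11 and 0.30 ± 0.10 in tumors against untreated colon (adjusted p = 3.81e-05 and 0.012). Slc25a18 lay between 4.86 and 6.02 in all samples and passed in no comparison.

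Of the glutathione carriers, Slc25a39 fell in AOM+DSS colon. It lay at 10.14, 10.28 and 10.48 in untreated fl/fl colon, 9.81, 9.92 and 10.24 after AOM+DSS and 9.60, 9.85 and 10.10 in tumors. It fell by 0.32 ± 0.078 and 0.45 ± 0.078 after AOM+DSS (adjusted p = 0.00192 and 7.6e-06), while tumors differed from AOM+DSS colon by -0.12 ± 0.083 and 0.043 ± 0.080 (adjusted p = 0.244 and 0.722). Slc25a40, its paralogue, lay at 7.71, 8.16 and 8.41, then 7.84, 8.18 and 8.64, then 7.44, 7.79 and 7.95 in fl/fl mice. It fell between AOM+DSS colon and tumors by 0.47 ± 0.097 and 0.41 ± 0.094 (adjusted p = 5.91e-05 and 0.00026). The branched-chain amino acid carrier Slc25a44 fell by 0.28 ± 0.086 and 0.33 ± 0.083 in tumors against untreated colon (adjusted p = 0.00477 and 0.000754). The ornithine carrier Slc25a2 was dim, between 4.22 and 4.94 in all samples and below all array medians. It fell by 0.30 ± 0.071 in fl/fl tumors (adjusted p = 0.00028), with a change of -0.15 ± 0.068 in knockout tumors (adjusted p = 0.0619). The ornithine carrier Slc25a15 and the glycine carrier Slc25a38 passed in no comparison.

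**Figure D2:**
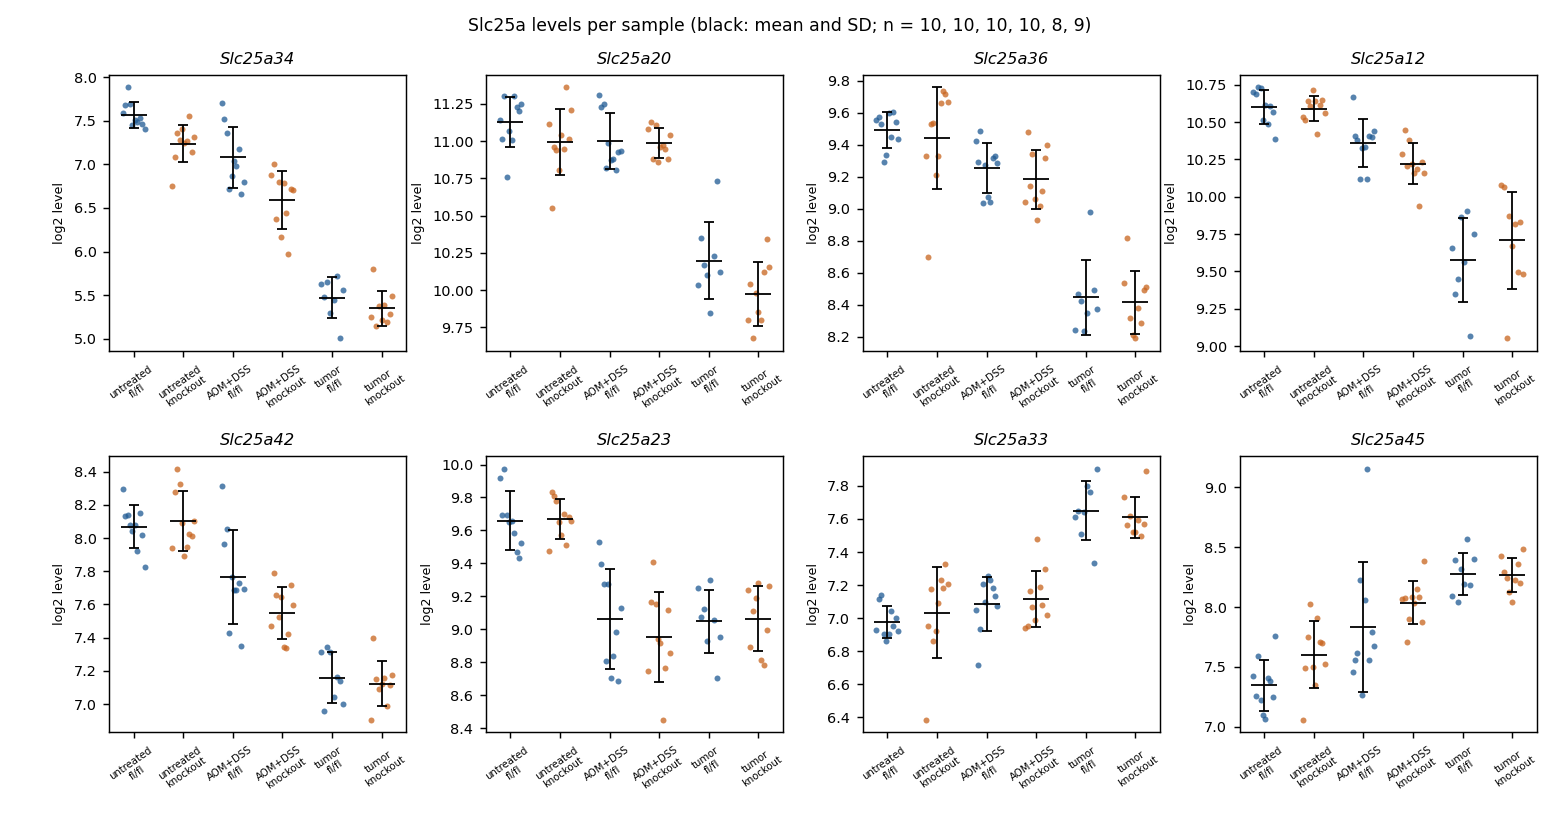
Log2 level of 8 Slc25a genes in each sample (points; blue fl/fl, orange knockout) by group, with the group mean and SD in black (n = 10, 10, 10, 10, 8 and 9). Slc25a20 and Slc25a36 have their lowest group means in tumors, Slc25a23 is low in both AOM+DSS colon and tumors, and Slc25a33 and Slc25a45 are higher in tumors than in untreated colon.

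Of the 8 nucleotide, vitamin and cofactor carriers measured, 2 rose and 3 fell in fl/fl tumors against untreated colon, where 22.9% of all genes rose and 22.5% fell. In knockout tumors 3 rose and 3 fell (23.6% and 23.7% of all genes). Slc25a33 and Slc25a36 both carry pyrimidine nucleotides into mitochondria, and Slc25a33 was first described as a transcript induced by insulin and insulin-like growth factor 1. Slc25a33 lay at 6.86, 6.94 and 7.14 in untreated fl/fl colon, 6.71, 7.11 and 7.26 after AOM+DSS and 7.33, 7.65 and 7.91 in tumors. Its knockout levels were 6.39, 7.13 and 7.33, then 6.94, 7.07 and 7.48, then 7.49, 7.57 and 7.89. Tumors lay above every colon sample of their genotype. Slc25a33 rose by 0.68 ± 0.084 and 0.58 ± 0.081 against untreated colon (adjusted p = 6.63e-10 and 1.61e-08), 1.60-fold and 1.49-fold.

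Slc25a36 lay at 9.29, 9.54 and 9.60 in untreated fl/fl colon, 9.03, 9.29 and 9.48 after AOM+DSS and 8.23, 8.40 and 8.98 in tumors. In knockout mice it lay at 8.70, 9.53 and 9.73, then 8.93, 9.13 and 9.48, then 8.19, 8.38 and 8.82. Fl/fl tumors lay below all fl/fl colon samples. Knockout tumors lay below all AOM+DSS samples and overlapped untreated colon only through replicate 2, at 8.70, the array that correlated least with its group. Slc25a36 fell by 1.05 ± 0.098 and 1.03 ± 0.095 against untreated colon (adjusted p = 1.06e-13 and 5.44e-14), to 48.4% and 49.1% of the untreated level.

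The coenzyme A carrier Slc25a42 lay at 7.82, 8.08 and 8.30 in untreated fl/fl colon, 7.35, 7.71 and 8.31 after AOM+DSS and 6.96, 7.15 and 7.34 in tumors. Knockout samples lay at 7.89, 8.06 and 8.42, then 7.34, 7.56 and 7.79, then 6.91, 7.12 and 7.40. In the knockout mice AOM+DSS colon lay wholly below untreated colon, as did the tumors of both genotypes. Slc25a42 fell by 0.30 ± 0.081 and 0.55 ± 0.081 after AOM+DSS (adjusted p = 0.00471 and 2.69e-07) and by 0.91 ± 0.086 and 0.98 ± 0.083 in tumors against untreated colon (adjusted p = 1.36e-13 and 2.46e-15). Slc25a16, a close relative in the family, lay at 9.35, 9.41 and 9.57, then 9.21, 9.39 and 9.53, then 8.67, 8.83 and 9.12 in fl/fl mice. The knockout values were 9.17, 9.41 and 9.55, then 8.98, 9.23 and 9.55, then 8.66, 8.97 and 9.09. Tumors lay below all untreated samples of their genotype, and Slc25a16 fell by 0.54 ± 0.066 and 0.47 ± 0.064 (adjusted p = 4.53e-10 and 8.26e-09).

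Slc25a32, which carries folates or flavins into mitochondria, rose after AOM+DSS by 0.23 ± 0.075 and 0.31 ± 0.075 (adjusted p = 0.0194 and 0.000891), the fl/fl call being lost with the compared groups fitted alone or with the squamous covariate (adjusted p up to 0.083). Slc25a26, which carries S-adenosylmethionine, fell by 0.20 ± 0.060 and 0.21 ± 0.060 after AOM+DSS (adjusted p = 0.0104 and 0.00461) and rose by 0.22 ± 0.064 and 0.32 ± 0.062 between AOM+DSS colon and tumors (adjusted p = 0.00339 and 1.58e-05). With the squamous mean as a covariate neither fall after AOM+DSS passed (-0.12 ± 0.065 and -0.14 ± 0.064, adjusted p = 0.209 and 0.131), and the fl/fl one did not with all arrays shifted to 1 median (adjusted p = 0.0677). With the smooth muscle mean as a covariate neither rise between AOM+DSS colon and tumors passed (0.027 and 0.13, adjusted p = 0.948 and 0.617 by limma). In tumors Slc25a26 differed from untreated colon by 0.018 ± 0.064 and 0.11 ± 0.062 (adjusted p = 0.851 and 0.151). The peroxisomal Slc25a17 rose in knockout tumors by 0.15 ± 0.051 against untreated colon (adjusted p = 0.0117), with 0.071 ± 0.053 in fl/fl tumors (adjusted p = 0.293). The knockout call was lost under 4 alternatives (further quantile normalization, the compared groups fitted alone, array weights and the smooth muscle covariate), with an adjusted p up to 0.756. The NAD carrier Slc25a51 passed in no comparison.

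The 2 iron carriers supply iron-sulfur and heme synthesis. Slc25a37, mitoferrin-1, lay between 7.66 and 8.48 in all samples and passed in no comparison. Slc25a28, mitoferrin-2, lay at 9.16, 9.38 and 9.53 in untreated knockout colon and at 8.89, 9.06 and 9.33 after AOM+DSS. It fell there by 0.26 ± 0.077 (adjusted p = 0.00811), with -0.16 ± 0.077 in fl/fl mice (adjusted p = 0.132). In knockout tumors against untreated colon Slc25a28 changed by -0.218 ± 0.0795 (adjusted p = 0.0193 by limma). That call was lost with the smooth muscle covariate (adjusted p = 0.38). In fl/fl tumors the change was -0.095 ± 0.0821 (adjusted p = 0.371).

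Slc25a34, whose substrate has not been settled, had the largest change of the 46 members in every comparison of tumors with colon. In fl/fl mice it lay at 7.40, 7.52 and 7.88 in untreated colon, 6.66, 7.01 and 7.70 after AOM+DSS and 5.00, 5.52 and 5.72 in tumors. Its knockout levels were 6.75, 7.27 and 7.55, then 5.97, 6.71 and 7.01, then 5.15, 5.28 and 5.80. Tumors lay below every colon sample of their genotype, while untreated and AOM+DSS colon overlapped. Slc25a34 fell by 0.49 ± 0.11 and 0.65 ± 0.11 after AOM+DSS (adjusted p = 0.00112 and 6.75e-06). In tumors against AOM+DSS colon it fell by 1.61 ± 0.12 and 1.24 ± 0.12 (adjusted p = 3.72e-17 and 1.48e-13). Against untreated colon the tumor level was 4.27-fold lower in fl/fl and 3.70-fold lower in knockout mice. RMA compresses changes of dim probe sets, and every tumor lay below the array medians for Slc25a34.

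Slc25a35, its paralogue, also fell in AOM+DSS colon. It lay at 9.76, 10.01 and 10.19 in untreated fl/fl colon, 9.20, 9.61 and 9.86 after AOM+DSS and 9.35, 9.53 and 9.67 in tumors. In knockout mice it lay at 9.83, 9.89 and 10.55, then 9.12, 9.44 and 9.90, then 9.36, 9.59 and 9.73. Tumors lay below all untreated samples and within the spread of AOM+DSS colon. Slc25a35 fell by 0.38 ± 0.083 and 0.54 ± 0.083 after AOM+DSS (adjusted p = 0.000518 and 6.38e-07), and tumors differed from AOM+DSS colon by -0.062 ± 0.088 and 0.12 ± 0.085 (adjusted p = 0.623 and 0.294). The outer membrane protein Slc25a46 fell by 0.17 ± 0.055 and 0.15 ± 0.053 in tumors against untreated colon (adjusted p = 0.00936 and 0.0126). Slc25a43, between 5.09 and 6.19 in all samples, fell by 0.34 ± 0.089 and 0.37 ± 0.086 between AOM+DSS colon and tumors (adjusted p = 0.00132 and 0.000249).

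Whether paralogues changed unequally was tested on the difference of their log2 levels within each array, over 16 pairs of 28 genes and 9 comparisons. Of the 144 tests, 56 passed after Benjamini-Hochberg adjustment over all of them, by permutation tests that were exact wherever tumors entered. Of these, 6 and 7 lay between AOM+DSS and untreated colon in fl/fl and knockout mice, 8 and 9 between tumors and AOM+DSS colon, and 11 and 12 between tumors and untreated colon. The size of such a difference depends on the probes, so its shift between groups is what is compared. Every pair passed in at least 1 comparison. The share of other gene pairs that would pass was not computed, so these counts do not mark a trait of the carrier paralogues. Taken singly, 45.4% and 47.3% of all genes passed between tumors and untreated colon in fl/fl and knockout mice.

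The difference Slc25a33 minus Slc25a36 lay at -2.69, -2.49 and -2.39 in untreated fl/fl colon, -2.58, -2.19 and -1.81 after AOM+DSS and -1.22, -0.73 and -0.47 in tumors. Knockout samples lay at -2.95, -2.41 and -1.74, then -2.53, -2.05 and -1.45, then -1.25, -0.79 and -0.62. No tumor overlapped a colon sample of its genotype. The shift between untreated colon and tumors was 1.72 ± 0.11 in fl/fl and 1.60 ± 0.12 in knockout mice (exact permutation test, two-sided, adjusted p = 0.000235 for both). Between untreated and AOM+DSS colon the pair shifted by 0.35 ± 0.097 in fl/fl mice (permutation test, adjusted p = 0.00798), and in knockout mice the shift was 0.34 ± 0.14 (adjusted p = 0.0538).

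The pair Slc25a34 and Slc25a35 shifted the other way. The difference lay at -2.63, -2.42 and -1.92 in untreated fl/fl colon, -2.99, -2.43 and -1.99 after AOM+DSS and -4.40, -4.06 and -3.70 in tumors. The knockout values were -3.47, -2.63 and -2.28, then -3.24, -2.76 and -2.55, then -4.51, -4.28 and -3.80. Tumors again lay apart from all colon samples, with shifts of -1.55 ± 0.12 and -1.35 ± 0.11 from AOM+DSS colon (exact permutation test, adjusted p = 0.000235 for both). After AOM+DSS neither genotype passed, although each gene alone had fallen.

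Slc25a1 minus Slc25a10, the citrate and dicarboxylate carriers, rose in tumors without overlap. It lay at 1.43, 1.57 and 1.75 in untreated fl/fl colon and at 2.04, 2.09 and 2.36 in tumors, and at 1.30, 1.61 and 1.83 and 2.02, 2.27 and 2.40 in knockout mice. The shifts were 0.57 ± 0.056 and 0.62 ± 0.065 (exact permutation test, adjusted p = 0.000235 for both). The translocase pair Slc25a4 minus Slc25a5 lay at -3.21, -2.97 and -2.52 in untreated fl/fl colon and at -2.84, -2.22 and -2.03 in tumors, with overlap. It shifted by 0.62 ± 0.12 and 0.54 ± 0.11 in fl/fl and knockout tumors (exact permutation test, adjusted p = 0.00172 and 0.00195).

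Among pairs that shifted after AOM+DSS, Slc25a23 minus Slc25a24 moved by -0.49 ± 0.13 in fl/fl and -0.64 ± 0.12 in knockout mice (permutation test, adjusted p = 0.00613 and 0.00108). Slc25a39 minus Slc25a40 moved by -0.40 ± 0.13 and -0.58 ± 0.092 (permutation test, adjusted p = 0.0267 and 0.000508). Slc25a18 minus Slc25a22 moved by -0.54 ± 0.15 and -0.35 ± 0.10 (permutation test, adjusted p = 0.011 and 0.0129). Neither Slc25a23 with Slc25a24 nor Slc25a39 with Slc25a40 passed between tumors and untreated colon in either genotype. Slc25a20 minus Slc25a29 moved by -0.74 ± 0.14 and -1.06 ± 0.11 between AOM+DSS colon and tumors (exact permutation test, adjusted p = 0.000411 and 0.000235). The aspartate-glutamate carriers, Slc25a12 minus Slc25a13, passed only in fl/fl tumors against untreated colon, by -0.55 ± 0.18 (exact permutation test, adjusted p = 0.00207), with 1 tumor at -0.11 and the median at 1.10.

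**Figure D3:**
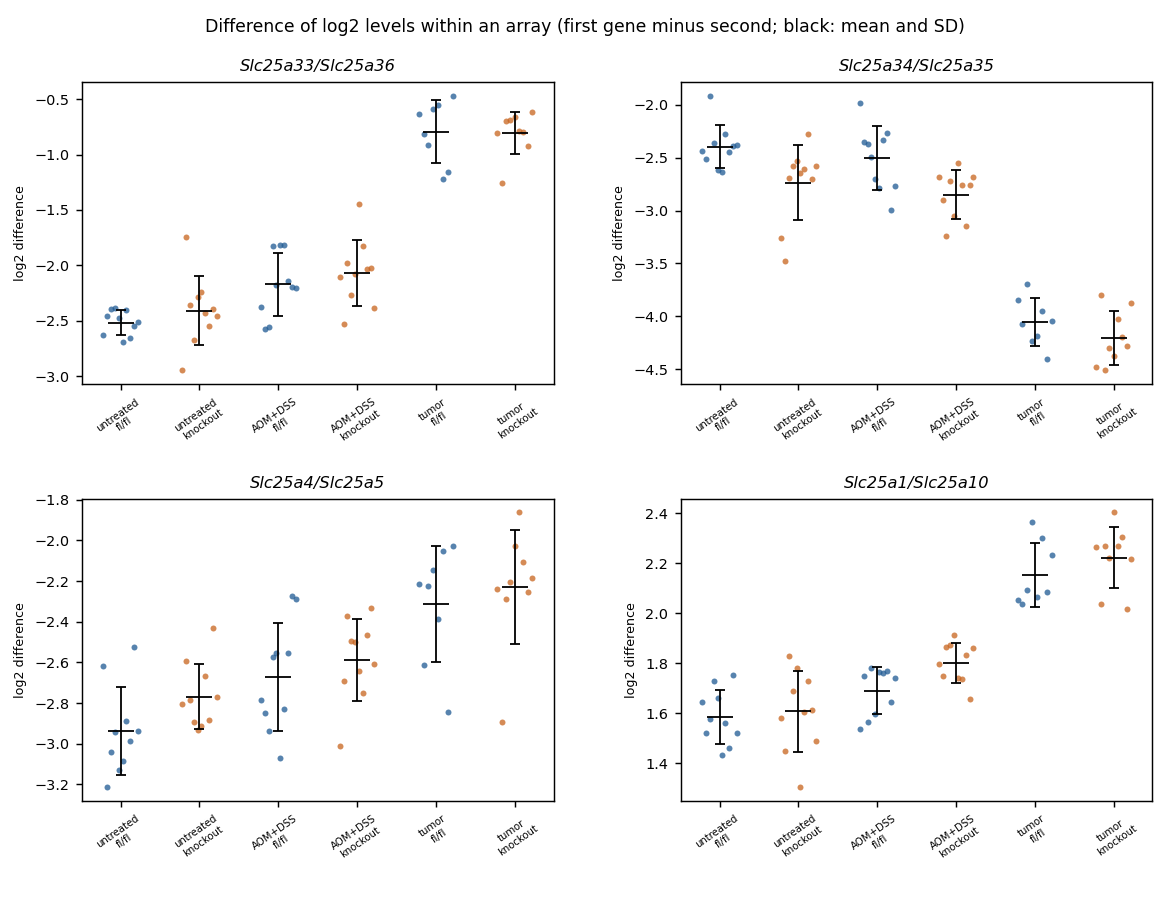
Difference of log2 levels within each array for 4 pairs of Slc25a paralogues (points; blue fl/fl, orange knockout) by group, with the group mean and SD in black. Tumors lie apart from all colon samples of their genotype for Slc25a33/Slc25a36, Slc25a34/Slc25a35 and Slc25a1/Slc25a10, and overlap them for Slc25a4/Slc25a5.

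Other genes of mitochondrial metabolism, from lists of known members, are given beside the carriers they work with. Against untreated colon, 22.9% of all genes rose and 22.5% fell in fl/fl tumors, and 23.6% and 23.7% in knockout tumors. All 16 measured genes of the respiratory chain and ATP synthase, which the translocases and Slc25a3 supply, fell in tumors of both genotypes against untreated colon, with median changes of -0.47 and -0.37. After AOM+DSS, 6 of them fell in fl/fl and 15 in knockout mice, where 10.5% and 14.2% of all genes fell. Of the 14 measured genes of the citric acid cycle, 12 fell in tumors of each genotype, among them Cs, citrate synthase, by 0.68 ± 0.055 and 0.58 ± 0.054 (adjusted p = 6.69e-16 and 3.6e-14). Of the 14 measured inner membrane transporters outside the family, 10 fell and 1 rose in fl/fl tumors, and 11 fell and 2 rose in knockout tumors. The sodium-calcium exchanger Slc8b1 fell by 1.34 ± 0.091 and 1.39 ± 0.088 (adjusted p = 4.75e-19 and 2.59e-20).

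In the carnitine shuttle, Cpt1a, the enzyme upstream of Slc25a20, fell by 1.13 ± 0.075 and 1.07 ± 0.073 in tumors against untreated colon (adjusted p = 2.16e-19 and 4.83e-19), and 3 of the 4 measured genes fell in each genotype, with 1 that rose in fl/fl tumors. In AOM+DSS colon Cpt1a fell by 0.28 ± 0.071 and 0.35 ± 0.071 against untreated colon (adjusted p = 0.00234 and 7e-05). Of the 7 measured partners in citrate export and the malate-aspartate shuttle, 1 rose and 3 fell in the tumors of each genotype, with median changes of -0.13 and -0.12 over the 7. Beside these lists, 22.9% of all genes rose and 22.5% fell in fl/fl tumors against untreated colon (23.6% and 23.7% in knockout tumors). Acly, which cleaves the citrate that Slc25a1 exports, fell by 0.87 ± 0.072 and 0.73 ± 0.069 in tumors (adjusted p = 8.13e-16 and 1.22e-13). Got1, the cytosolic transaminase of the malate-aspartate shuttle served by Slc25a12 and Slc25a13, fell by 0.62 ± 0.079 and 0.59 ± 0.076 (adjusted p = 1.27e-09 and 2.27e-09). Me1, cytosolic malic enzyme, rose by 1.11 ± 0.17 and 0.54 ± 0.16 (adjusted p = 1.26e-07 and 0.00475).

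The folate and one-carbon enzymes are given beside Slc25a32, which carries folates or flavins. Of the 7, 5 rose and 2 fell in fl/fl tumors against untreated colon, and 4 rose and 1 fell in knockout tumors. For this list and the next ones, 22.9% of all genes rose and 22.5% fell in fl/fl tumors (23.6% and 23.7% in knockout tumors). Mthfd2 rose by 0.99 ± 0.13 and 0.88 ± 0.12 (adjusted p = 1.31e-09 and 1.21e-08), and the cytosolic Shmt1 fell by 0.52 ± 0.087 and 0.45 ± 0.084 (adjusted p = 7.87e-07 and 7.08e-06). Of the 6 measured genes of iron-sulfur and heme synthesis, the users of mitoferrin iron, 2 fell in tumors of each genotype. Of the 10 genes that insert carriers into the inner membrane or make cardiolipin, 3 rose in tumors of each genotype, and 1 and 2 fell. Timm22, the core of the carrier insertion complex, rose by 0.34 ± 0.065 and 0.24 ± 0.063 (adjusted p = 1.37e-05 and 0.00115). Of the 8 outer membrane channels and import receptors, 4 fell in tumors of each genotype, while 2 rose in fl/fl and 1 in knockout tumors. Vdac1, a channel for metabolites, fell by 0.33 ± 0.039 and 0.27 ± 0.038 (adjusted p = 1.06e-10 and 1.46e-08). Of the 4 measured family members under other symbols, Mtch2 fell by 0.19 ± 0.055 and 0.15 ± 0.053 (adjusted p = 0.00336 and 0.0185). The other 3 (Mtch1, Ucp1 and Ucp3) did not pass in tumors against untreated colon.

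Of 8 regulators of mitochondrial biogenesis, 2 rose and 3 fell in fl/fl tumors against untreated colon, where 22.9% of all genes rose and 22.5% fell. In knockout tumors 3 rose and 3 fell (23.6% and 23.7% of all genes). The coactivator Ppargc1b fell by 1.70 ± 0.12 and 1.53 ± 0.12 (adjusted p = 5.75e-18 and 8.23e-17), and Esrra, the nuclear receptor it works with, by 0.54 ± 0.068 and 0.65 ± 0.066 (adjusted p = 1.11e-09 and 1.1e-12). Pprc1, a related coactivator, rose by 0.62 ± 0.10 and 0.61 ± 0.097 (adjusted p = 4.42e-07 and 2.7e-07).

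The loss of the epithelial insulin receptor was set against these changes in each condition. In untreated colon 0 members passed between knockout and fl/fl samples by limma, where 0.00451% of all genes did, and 1 member, Slc25a34, had an unadjusted p under 0.05. In tumors 0 members passed (0.00902% of all genes) and 1, Slc25a20, had an unadjusted p under 0.05. After AOM+DSS 1 member passed, Slc25a34, beside 0.541% of all genes (0.419% higher and 0.122% lower), and 8 members had an unadjusted p under 0.05. The share of all genes with an unadjusted p under 0.05 was not computed, so these unadjusted counts have no background beside them.

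In AOM+DSS colon the Slc25a34 level of knockout samples changed by -0.50 ± 0.11 against fl/fl samples (means 6.585 and 7.081, adjusted p = 0.0312 by limma), or 70.9% of the fl/fl level, with ranges of 5.97 to 7.01 and 6.66 to 7.70 that overlapped. Fitted on these groups alone the same difference had an adjusted p of 0.154, and over the alternatives run it lay between 0.0118 and 0.154. In untreated colon the difference was -0.33 ± 0.11 (means 7.238 and 7.567, adjusted p = 0.682 by limma). The pair Slc25a34 minus Slc25a35 was lower in knockout colon both untreated, by -0.34 ± 0.13, and after AOM+DSS, by -0.34 ± 0.12 (permutation tests, adjusted p = 0.0237 and 0.0295). Slc25a1 minus Slc25a10 was higher in knockout AOM+DSS colon by 0.11 ± 0.039 (permutation test, adjusted p = 0.03). In tumors 0 of the 16 pairs passed between genotypes. Among the other members with the smallest p, Slc25a45 differed by 0.26 ± 0.13 (95% interval -0.0020 to 0.51) and Slc25a4 by 0.16 ± 0.087 (-0.015 to 0.33) in untreated colon. After AOM+DSS the differences were -0.24 ± 0.081 (-0.40 to -0.076) for Slc25a44 and -0.10 ± 0.037 (-0.18 to -0.029) for Slc25a5. In tumors they were -0.22 ± 0.094 (-0.41 to -0.036) for Slc25a20, 0.12 ± 0.065 (-0.015 to 0.25) for Slc25a26 and 0.17 ± 0.105 (-0.042 to 0.38) for Slc25a30. None of these 7 differences passed the limma test, with adjusted p between 0.137 and 1.

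Part of the marker lists after AOM+DSS are given beside these differences, as means that were not tested. The mean of the 5 measured B cell markers was 8.47 ± 0.21 in knockout and 7.81 ± 0.71 in fl/fl colon (SD, n = 10 each), that of the 7 T cell markers 7.44 ± 0.25 and 7.06 ± 0.32, that of the 6 fibroblast markers 10.86 ± 0.16 and 10.56 ± 0.33, and that of the 7 surface colonocyte markers 11.80 ± 0.26 and 12.02 ± 0.20. Knockout and fl/fl means were 7.46 ± 0.75 and 6.92 ± 0.83 for neutrophil, 9.72 ± 0.15 and 9.49 ± 0.21 for macrophage, and 8.58 ± 0.11 and 8.38 ± 0.26 for endothelium markers. Knockout means were lower for smooth muscle (11.62 ± 0.19 and 11.77 ± 0.23), skeletal muscle (5.69 ± 0.22 and 6.02 ± 0.49) and adipocyte markers (6.50 ± 0.32 and 6.73 ± 0.25). Tested singly, 0 of 5 B cell, 1 of 7 T cell, 0 of 6 fibroblast and 0 of 7 surface colonocyte markers passed by limma, and 0 of the other markers named here. Their part in the Slc25a34 difference was not tested. With the smooth muscle mean as a covariate the difference was -0.47 ± 0.11 (adjusted p = 0.0428).

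The condition changes of the 2 genotypes share no arrays and could be set side by side. Between AOM+DSS and untreated colon, 2 members rose and 9 fell in both genotypes (10.5% and 6.08% of all genes), and 0 passed in opposite directions. Those that rose in both were Slc25a32 and Slc25a45, and those that fell were Slc25a3, Slc25a11, Slc25a12, Slc25a23, Slc25a26, Slc25a34, Slc25a35, Slc25a39 and Slc25a42. Between tumors and AOM+DSS colon 6 rose and 12 fell in both (17.2% and 17% of all genes), and between tumors and untreated colon 8 and 19 (20.6% and 18.6% of all genes), again with 0 in opposite directions. Across the 46 genes, which are not independent replicates, the changes correlated with Pearson's r of 0.889, 0.951 and 0.981 and Spearman's rho of 0.86, 0.886 and 0.967 in these 3 comparisons.

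A test of the difference between genotypes in the change itself passed for 0 members, and for 0% of all genes, by limma, both for AOM+DSS against untreated colon (3 members with an unadjusted p under 0.05) and for tumors against AOM+DSS colon (5 members). For these unadjusted counts too, the share of all genes was not computed. The smallest p for AOM+DSS against untreated colon was that of Slc25a44, whose change was 0.26 ± 0.12 lower in knockout mice (95% interval -0.49 to -0.028, adjusted p = 0.803), ahead of Slc25a42 and Slc25a54. For tumors against AOM+DSS colon, the changes of 3 members were less negative in knockout mice, Slc25a5 by 0.13 ± 0.055 (0.016 to 0.24, adjusted p = 0.691), Slc25a34 by 0.37 ± 0.17 (0.039 to 0.71, adjusted p = 0.694) and Slc25a12 by 0.27 ± 0.13 (0.013 to 0.53, adjusted p = 0.734).

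**Figure D4:**
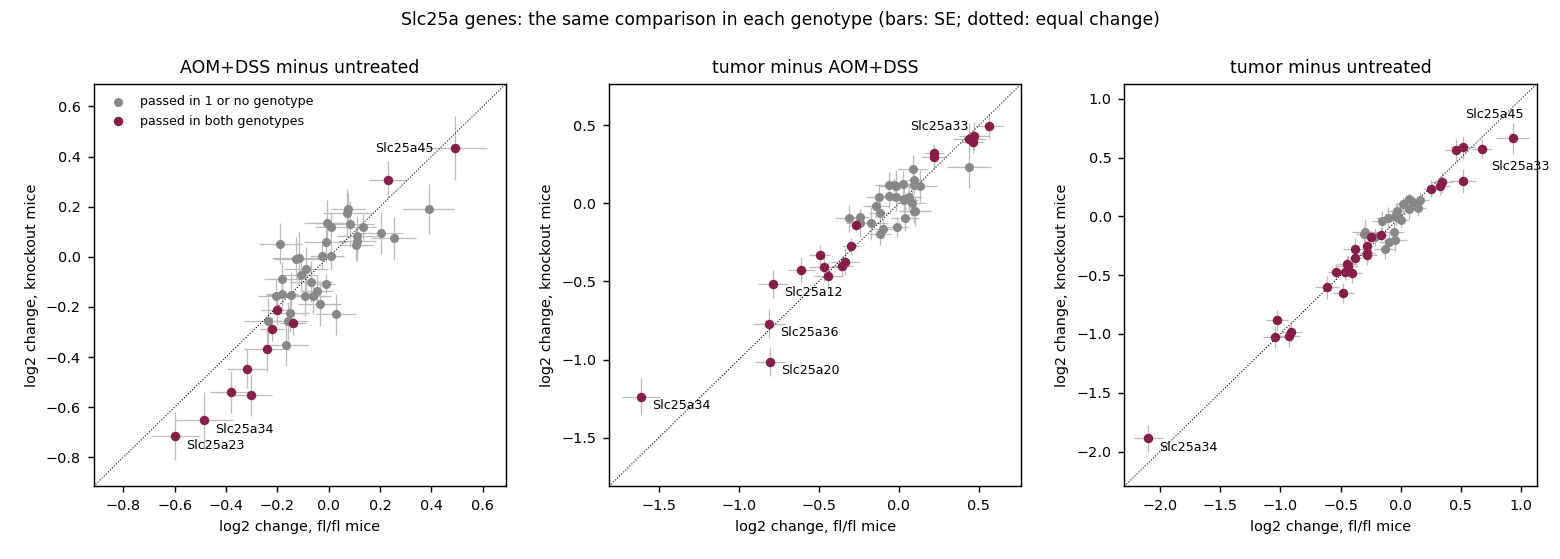
Log2 change of the 46 Slc25a genes in fl/fl mice (horizontal) against knockout mice (vertical) for 3 comparisons between conditions, with SE bars and a dotted line of equal change; purple points passed in both genotypes. Slc25a34 is the lowest point in the panels that involve tumors, and Slc25a23 after AOM+DSS.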

How the data were processed

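Expression in 57 samples of 6 groups was measured on Affymetrix arrays from 250 ng of total RNA. The deposited log2 values were made by the authors with RMA, per the submitters' processing notes; its version is not given in the sources used here. RMA corrects background, brings the arrays to 1 distribution and combines the probes of a set, so a shift of a whole array is not visible and changes of dim probes are compressed. Arrays give no count of reads; precision depends on how many arrays a group holds.

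Of 41345 probe sets, 23521 named 1 gene symbol, 1814 named several and were not used, and the others named none. The brightest probe set per gene left 22180 genes. limma 3.58.1 in R 4.3.3 (lmFit, contrasts.fit, eBayes) was run with 1 model of the 6 groups (51 residual degrees of freedom), two-sided, with Benjamini-Hochberg adjustment over all genes and a threshold of 0.05. Paralogue differences were tested with two-sided permutation tests, exact where a group held under 10 samples and with 1e+05 permutations otherwise, in Python 3.11.15 with numpy 2.4.6 and scipy 1.17.1. Their SE comes from the spread of the samples in both groups. Both procedures were tested on simulated data.

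Values by sample are given for members that passed with a change of at least 0.5 in size (14 members) and for both genes of pairs that passed (28 members in all). Where no member passed between genotypes, those with the smallest p are named. The members, the lists of genes and the pairs were chosen with earlier results of these data known, so their counts are descriptions. Alternatives were other scalings, averaging the probe sets of each gene, a filter on dim genes, other variance settings, array weights, the compared groups fitted alone, the replicate number as a block, the least correlated array left out, and the smooth muscle or squamous marker mean as a covariate. Same-numbered samples of 2 groups correlated between -0.32 and 0.33 after removal of the group means. The labels name no samples of the same mouse to compare these values with, so whether the numbers pair samples was not tested. Promoter sequences are from RefSeq (GRCm38.p6).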

Additional observations from a re-analysis of the deposited data

Results flagged for a closer look

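In 19 of 264 searches of a group of samples (7.2%), 1 sample lay further from the others than Dixon's criterion allows. Chance gives about 1 in 20.

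Replicate 2 of untreated knockout colon, the array least correlated with its group, was one of the samples that stood apart most often. Its Slc25a36 level was 8.70 (nearest sample 9.21), its Slc25a35 level 10.55 (10.05) and its Slc25a39 level 10.62 (10.39). Replicate 2 of the knockout tumors stood apart as often, with Slc25a4 at 9.67 (nearest 10.18), Slc25a4 minus Slc25a5 at -2.89 (-2.29) and Slc25a33 minus Slc25a36 at -1.25 (-0.92). Replicate 7 of AOM+DSS fl/fl colon had Slc25a45 at 9.16 (8.23) and Slc25a45 minus Slc25a48 at 3.12 (2.05). Replicate 5 of AOM+DSS knockout colon had Slc25a25 at 6.19 (6.60) and Slc25a24 minus Slc25a25 at 4.90 (4.58).

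The remaining samples stood apart in 1 value each. Slc25a36 was 8.98 in fl/fl tumor replicate 6 (nearest 8.49), and Slc25a33 was 6.39 in untreated knockout replicate 1 (6.86). Slc25a13 was 9.55 in AOM+DSS fl/fl replicate 6 (9.13), Slc25a48 was 5.75 in AOM+DSS knockout replicate 2 (6.24), and Slc25a11 was 10.13 in untreated knockout replicate 6 (10.23). Slc25a14 minus Slc25a30 was -1.24 in untreated fl/fl replicate 1 (-0.92), and Slc25a28 minus Slc25a37 was 1.5 in AOM+DSS fl/fl replicate 9 (1.13). Slc25a34 minus Slc25a35 was -1.92 in untreated fl/fl replicate 3 (-2.28), and Slc25a45 minus Slc25a48 was 0.96 in knockout tumor replicate 5 (1.40).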

How the results depend on the processing

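No called change of a member reversed its direction under any of 10 alternatives. Of the 141 calls on members in the 9 comparisons, 131 were kept with all arrays shifted to 1 median, 133 after a further quantile normalization, 131 with the compared groups fitted alone and 128 with the squamous marker mean as a covariate. With array weights 138 were kept, with trend and robust variance 140, and without untreated knockout replicate 2, the least correlated array, 138. With dim genes removed, 34 members were tested and 115 of 115 calls were kept. Averaging the probe sets of a gene is no test here, since each member has 1.

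With the smooth muscle mean as a covariate, the members called fell to 6 (fl/fl) and 4 (knockout) between tumors and AOM+DSS colon and to 11 and 7 between tumors and untreated colon. That marker mean itself differs between tumors and colon, so the covariate takes up part of the contrast. Calls over all genes fell too, from 9143 and 9511 to 2131 and 2145 between tumors and AOM+DSS colon. Between tumors and untreated colon they fell from 10063 and 10486 to 3305 and 2967. The 1 call between genotypes after AOM+DSS, Slc25a34, became 0 with the compared groups fitted alone (limma adjusted p = 0.154; the cause was not tested) and 0 with dim genes removed, where Slc25a34 is among the genes removed.

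With the replicate number as a block, limma called 18 and 21 members between AOM+DSS and untreated colon (fl/fl and knockout), 23 and 23 between tumors and AOM+DSS colon, and 30 and 32 between tumors and untreated colon. Between genotypes the block gave 0, 1 and 0, and 51 of the paralogue tests passed, 48 of them among the 56. Array number and probe brightness limit what small changes of dim members can show.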
